A study of Mus musculus with 14 samples.

Results

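H3K27me3 over 8 genes that make, bind, sense or degrade retinoic acid was measured in mouse embryonic stem cells (mESCs) that lacked a loop anchor at Hoxa, Wnt6 or Hmx1. The genes were Cyp26a1, Cyp26b1, Cyp26c1, Aldh1a2, Aldh1a3, Rarb, Crabp1 and Crabp2, and their peaks were those within 10 kb of the RefSeq gene body. This took 52 of the 74458 peaks in the table, of which 5 lay near both Cyp26a1 and Cyp26c1, and 8 of the 17003 protein-coding genes with a peak in such a window. All 52 peaks and all 8 gene windows entered the tests.

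Retinoic acid is a small hormone-like molecule made from vitamin A. The retinaldehyde dehydrogenases Aldh1a2 and Aldh1a3 carry out the final oxidation to retinoic acid, Crabp1 and Crabp2 bind it in the cytoplasm, and it acts through nuclear receptors such as Rarb, which sit on DNA as dimers with retinoid X receptors. The cytochrome P450 enzymes of the Cyp26 family oxidise and inactivate it. In embryonic stem cells many of the genes that respond to retinoic acid are held silent under H3K27me3, the mark that Polycomb repressive complex 2 places on histone H3.

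The method was Cut&Tag, in which an antibody against H3K27me3 directs a transposase to cut the DNA around the mark, so that the sequences counted in a peak measure its H3K27me3. There were 3 libraries of the Hoxa deletion, 2 of the Wnt6 deletion and 2 of the Hmx1 deletion. The cells descended from G4, a hybrid mESC line of the 129/Sv and C57BL/6 mouse strains, were edited with CRISPR-Cas9 guide pairs so that both copies of a loop anchor were lost, and were grown with LIF on feeder cells. The study raised its lines from single clones, so that deletion and clone cannot be told apart, and the table used here has no column of unedited cells. The reference for a deletion was thus the other 2 deletions pooled, and each comparison shares its reference libraries with the others. The labels do not say that the replicates came from separate cultures, so that p-values measure only the spread between these libraries.

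Total counts ran from 6016500 to 36563541 per library. In the Hoxa deletion the longest run of peaks that were all but empty held 46 peaks at chr6:52163046-52274461, in the Wnt6 deletion 34 peaks at chr1:74768523-74901291 and in the Hmx1 deletion 11 peaks at chr5:35382872-35401827, so that no library went against its label. No retinoic acid gene of the 8 lay in these stretches. Cyp26b1 shares chromosome 6 with the Hoxa cluster, 32.3 Mb away, and lies 0.833 Mb from Vax2, a gene whose contact with the Hoxa cluster the study examined. Of 10 stem cell marker genes, 8 had a peak in their windows, with a median of 6.87 CPM (counts scaled to a fixed library total) per kb of peak. They ran from 5.73 to 18.5, with Sox2 at 18.5 and Esrrb at 17.7 above the median of all gene windows, 10.9 CPM per kb. Of 8 fibroblast marker genes 7 had a peak, with a median of 32.6 CPM per kb and a range from 19.4 to 51.0.

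The start sites of 4 of the genes are shown first, because the peaks described here lie over them and because the start regions of Cyp26a1 and Rarb hold a match to the retinoic acid response element. Such an element is a direct repeat of a 6-base receptor half-site. A search for the half-sites AGGTCA or AGTTCA or GGTTCA or GGGTCA, repeated after a gap of 5 bases on either strand, found 15 of the 17492 protein-coding promoter windows in the RefSeq table with a match, or 0.0858%. The windows ran from 250 bases before to 50 bases after the start. Both Cyp26a1 and Rarb were among the 15. Of these 15 windows, 7 overlapped a peak, where 56.3% of all windows did. With gaps of 2 or 1 bases also allowed, 62 windows matched, or 0.354%, and no further retinoic acid gene was added. The windows of Cyp26b1, Cyp26c1, Aldh1a2 and Crabp1 held no such letters, and Aldh1a3 and Crabp2 are not in the table. The 250 bases before the start are printed 5′ to 3′ on the gene's strand from RefSeq, build GRCm38.p6, the assembly of mm10. Capitals mark the matched letters in the first 2 sequences, at chr19:37697558-37697807 on the plus strand and chr14:16575477-16575726 on the minus strand.
Cyp26a1: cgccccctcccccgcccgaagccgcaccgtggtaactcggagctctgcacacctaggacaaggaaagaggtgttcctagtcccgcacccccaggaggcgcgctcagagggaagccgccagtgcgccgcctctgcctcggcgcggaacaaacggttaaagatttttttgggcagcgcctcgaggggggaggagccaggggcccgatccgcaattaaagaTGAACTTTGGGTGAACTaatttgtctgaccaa
Rarb: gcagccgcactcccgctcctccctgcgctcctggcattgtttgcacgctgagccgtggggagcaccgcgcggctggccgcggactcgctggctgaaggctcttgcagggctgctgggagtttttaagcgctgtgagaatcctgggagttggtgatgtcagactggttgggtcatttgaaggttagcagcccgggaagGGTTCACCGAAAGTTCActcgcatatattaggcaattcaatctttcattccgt

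The Cyp26a1 match reads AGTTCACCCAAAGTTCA on the strand opposite to the gene, from base -32 to base -16 counted from the start, and the Rarb match reads GGTTCACCGAAAGTTCA on the gene's own strand, from base -53 to base -37. The other pair of sequences belongs to the genes whose H3K27me3 was gathered most in 1 peak at the start, Aldh1a2 at chr9:71215539-71215788 and Crabp1 at chr9:54764498-54764747, both on the plus strand. In these, capitals mark each CG dinucleotide.
Aldh1a2: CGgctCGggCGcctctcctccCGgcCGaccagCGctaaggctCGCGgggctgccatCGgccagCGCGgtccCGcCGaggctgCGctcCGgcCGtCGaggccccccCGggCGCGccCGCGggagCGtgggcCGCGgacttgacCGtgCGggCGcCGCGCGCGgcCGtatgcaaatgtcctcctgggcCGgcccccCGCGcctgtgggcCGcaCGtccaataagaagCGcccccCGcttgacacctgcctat
Crabp1: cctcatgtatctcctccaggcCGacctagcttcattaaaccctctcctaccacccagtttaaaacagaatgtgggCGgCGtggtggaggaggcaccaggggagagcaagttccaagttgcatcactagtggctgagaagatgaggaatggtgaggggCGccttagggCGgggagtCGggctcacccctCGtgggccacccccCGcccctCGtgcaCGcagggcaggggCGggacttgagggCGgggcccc

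CG dinucleotides are given because H3K27me3 in stem cells is known to gather over CpG islands. The 300-base window held 50 of them in Aldh1a2, at the 99.1st percentile of promoter windows, 26 in Cyp26a1, 17 in Crabp1, 17 in Rarb, 9 in Cyp26b1 and 5 in Cyp26c1. The median was 22 in windows that overlapped a peak and 3 in windows that did not. Of the 6 genes in the table, 5 had a peak over the window, against 56.3% of all protein-coding promoter windows, and Cyp26c1, with the fewest CG dinucleotides, did not. Its nearest peaks ended at -650 bp and began at 642 bp from the start.

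Among the degrading enzymes, Cyp26a1 and Cyp26c1 carried the highest H3K27me3 of the 8 genes, averaged over the peaks of the gene window. Levels are given as CPM, scaled by TMM factors and summed over the peaks of a gene window, per kb of those peaks. Cyp26a1 stood at 82.2, 74.7 and 80.5 CPM per kb in the 3 Hoxa deletion libraries, at 77.8 and 71.5 in the Wnt6 deletion and at 81.9 and 82.0 in the Hmx1 deletion. The mean of 78.7 was at the 99.4th percentile of all gene windows. Cyp26c1, its neighbour on chromosome 19, had nearly the same values, with a mean of 78.5 CPM per kb, since the pair share 5 peaks that hold most of their counts. Cyp26b1 measured 49.4, 47.7 and 48.0 CPM per kb in the Hoxa deletion, 48.5 and 45.9 in the Wnt6 deletion and 44.6 and 52.4 in the Hmx1 deletion, with a mean of 48.1, at the 93.7th percentile. The Hmx1 deletion held both the lowest and the highest Cyp26b1 library. In such bulk libraries, less mark in every cell and fewer cells with the mark cannot be told apart.

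By the level over the whole window, which averages strong and weak peaks, the enzymes of synthesis lay in the middle of the range. Their strongest peaks alone stood at 102 CPM per kb for Aldh1a2 and 98.6 for Aldh1a3. The strongest Cyp26a1 peak had 78.7 CPM per kb, and the peaks in the Cyp26c1 gene had from 95.1 to 124. Aldh1a2, whose product supplies most retinoic acid of the early embryo, stood at 56.0, 49.7 and 46.6 CPM per kb in the Hoxa deletion, 54.7 and 43.6 in the Wnt6 deletion and 53.0 and 52.4 in the Hmx1 deletion. Its coefficient of variation over the 7 libraries, 8.79%, was the largest of the 8 genes. Aldh1a3, the dehydrogenase of the developing eye and nose, measured 52.9, 48.4 and 54.1 CPM per kb in the Hoxa deletion, 52.9 and 49.1 in the Wnt6 deletion and 56.4 and 52.9 in the Hmx1 deletion.

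The binding proteins and the receptor ran from the upper to the lower end of the remaining range. Crabp1 stood at 59.9, 59.2 and 58.8 CPM per kb in the Hoxa deletion, 61.1 and 51.7 in the Wnt6 deletion and 55.5 and 62.4 in the Hmx1 deletion. Crabp2, which carries retinoic acid to its receptors, measured 29.2, 27.5 and 26.3 CPM per kb in the Hoxa deletion, 28.6 and 25.6 in the Wnt6 deletion and 26.1 and 26.7 in the Hmx1 deletion. Rarb was the lowest by window, close to the median of all gene windows of 10.9. It had 12.1, 11.6 and 12.0 CPM per kb in the Hoxa deletion, 12.4 and 11.5 in the Wnt6 deletion and 11.4 and 12.7 in the Hmx1 deletion. Its window averages 11 peaks of unequal strength. The Rarb peak over the start, described below, stood at 35.1 CPM per kb, at the 91.2nd percentile of all peaks. The order by level per kb over the whole window was thus Cyp26a1, Cyp26c1, Crabp1, Aldh1a3, Aldh1a2, Cyp26b1, Crabp2 and Rarb. The ranges of the 7 libraries overlapped between neighbours from Crabp1 to Cyp26b1 and between the Cyp26a1 and Cyp26c1 pair. They did not overlap between Cyp26c1 and Crabp1, between Cyp26b1 and Crabp2 or between Crabp2 and Rarb. By total CPM over the window, which grows with the covered length, Cyp26c1 took rank 1, Cyp26b1 rank 3 and Crabp1 rank 7. Cyp26c1, at 528.4 CPM, and Cyp26a1, at 528.1, were all but equal. The shared peak over the Cyp26a1 start held 38.0% of the Cyp26c1 window.

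**Figure D1:**
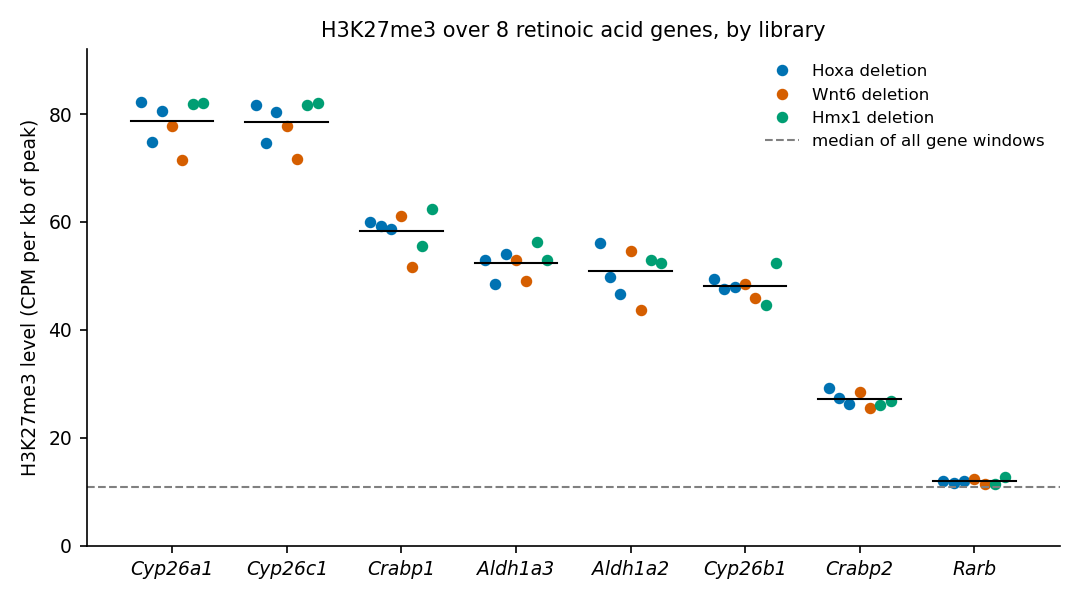
H3K27me3 level in CPM per kb of peak over the gene window of each retinoic acid gene, 1 point per library, coloured by deletion, with a line at the mean of the 7 libraries. The colours mix within each gene, Cyp26a1 and Cyp26c1 lie above 71 and Rarb lies near the dashed median of all gene windows at 10.9.

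The layout of H3K27me3 differed from gene to gene. Crabp1 and Aldh1a2 each kept nearly all of their counts in a single peak over the start. The peak at chr9:54763900-54766332 held 95.7% ± 0.539 (SD over 7 libraries) of the Crabp1 window, with 162, 159 and 157 CPM in the Hoxa deletion, 165 and 138 in the Wnt6 deletion and 148 and 166 in the Hmx1 deletion. The peak at chr9:71214941-71216680 held 89.4% ± 0.926 of the Aldh1a2 window, while the other 4 peaks, all in the gene body, reached at most 15.95 CPM in any library.

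In the Cyp26a1 and Cyp26c1 pair the mark was spread over both genes. The strongest peak, chr19:37696896-37699442, covered the Cyp26a1 start and the match printed above, with 210, 195 and 204 CPM in the Hoxa deletion, 205 and 187 in the Wnt6 deletion and 190 and 213 in the Hmx1 deletion. It held 38.0% ± 1.64 of the Cyp26a1 window. The 3 peaks of the Cyp26c1 gene were shorter but denser per kb, at 95.1, 124 and 121 CPM per kb against 78.7 for the peak over the Cyp26a1 start.

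Cyp26b1 differed from Cyp26a1 in that its start was not its strongest site. The peak nearest its start, chr6:84593855-84594118, lay wholly upstream, with its near edge at -45 bp, and had a mean of 8.48 CPM, or 32.2 CPM per kb. Its strongest peak, chr6:84581978-84584505, began 9305 bp inside the gene and had 174, 162 and 160 CPM in the Hoxa deletion, 157 and 145 in the Wnt6 deletion and 138 and 171 in the Hmx1 deletion. A further 6 peaks in the gene body had means between 33.5 and 82.4 CPM. No other annotated gene lay within 10 kb of Cyp26b1.

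Rarb, with 651.5 kb the longest of the genes, had most of its counts at the start listed in the promoter table, which lies inside the gene record. The peak chr14:16574860-16575876 covered the match printed above, 144.6 kb before the end of the gene record, and had 40.1, 35.2 and 35.2 CPM in the Hoxa deletion, 39.2 and 31.9 in the Wnt6 deletion and 32.1 and 36.0 in the Hmx1 deletion. The other 10 Rarb peaks had means of at most 6.34 CPM. For Aldh1a3 and Crabp2 the tables used here give no strand, so that both gene ends are described. The strongest Aldh1a3 peak, chr7:66426453-66428148, lay over the end of higher coordinate with a mean of 167 CPM, and a second one beyond the other end, chr7:66387438-66388593 with 71.7 CPM, overlapped the neighbouring gene Lrrk1. Crabp2 had no dominant peak: its 5 peaks had means between 16.8 and 55.7 CPM, and the first of them by position, chr3:87947279-87949348, over the end of lower coordinate, held 31.3% ± 2.21 of the window.

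**Figure D2:**
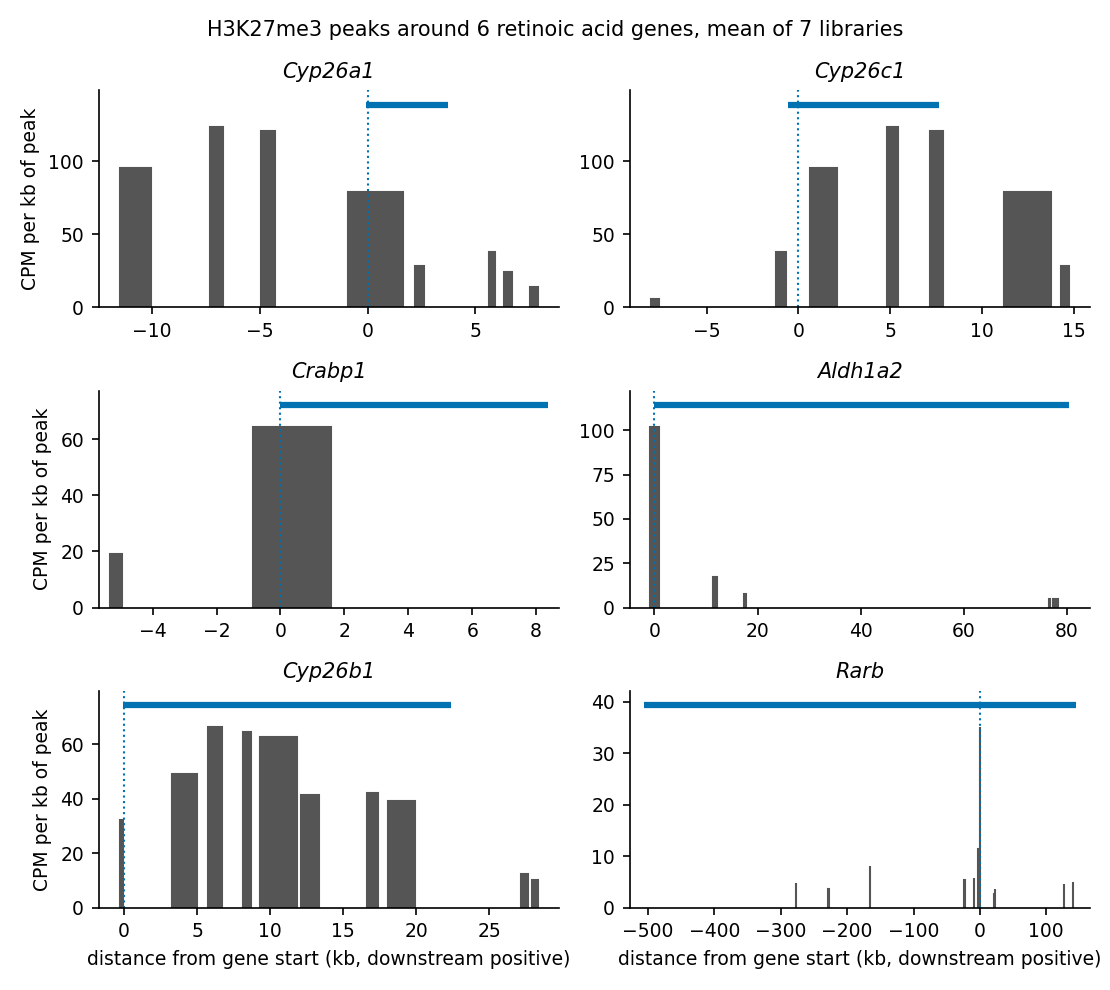
Peaks around the 6 genes with a start in the RefSeq table, drawn as blocks of their true width at their mean CPM per kb over the 7 libraries, against distance from the start in kb. The horizontal bar is the gene body, and the panels show 1 start peak in Crabp1, Aldh1a2 and Rarb against runs of peaks in Cyp26a1, Cyp26c1 and Cyp26b1.

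The counts behind a gene window ran from 326, for Rarb in the shallowest library, to 18821, for Cyp26b1 in the deepest. None of the 8 gene windows passed the quasi-likelihood test of edgeR, adjusted over all gene windows, in any deletion. In the Hoxa deletion the log2 fold changes ran from -0.026 for Aldh1a3 to 0.047 for Crabp2, with a lowest adjusted p of 0.695. There 19.4% of all gene windows passed an adjusted p of 0.05 by edgeR. This and the other Hoxa deletion shares of all windows or peaks given below include chromosome 8, which holds none of the 8 genes. Its 5579 peaks had a median log2 fold change of -0.59 in that deletion, and shares without it are not given here. In the Wnt6 deletion all 8 values lay below 0, from -0.10 for Cyp26a1 to -0.0042 for Rarb. The lowest adjusted p was 0.874, where 0.0412% of gene windows passed. The share of all windows below 0 is not given here. Among all peaks the median in that comparison was 0.097 under 2 CPM, -0.037 at 50 to 100 CPM and -0.045 above. With scaling by library totals alone, Rarb and Crabp2 lay above 0, at 0.015 and 0.012. In the Hmx1 deletion the values of the 8 genes ran from -0.052 for Crabp2 to 0.085 for Aldh1a3, with a lowest adjusted p of 0.534, where 0.0706% passed. No window of the 8 genes passed an unadjusted p of 0.05 in any comparison.

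The intervals give the range of differences from the other deletions that goes with the spread between these libraries. Each covers 95% on its own, not all of them jointly. A change shared by all the deletions would not appear in them, and effects of clone and deletion cannot be told apart. Over the 24 comparisons of a gene with a deletion, the 95% intervals reached down to -0.29, for Aldh1a2 in the Wnt6 deletion, and up to 0.28, for Aldh1a2 in the Hmx1 deletion, on the log2 scale. This corresponds to levels between 0.820 and 1.22 times those of the other deletions. For Cyp26b1 in the Hoxa deletion the interval ran from -0.11 to 0.14 around 0.015, with a level of 48.4 ± 0.915 CPM per kb (SD, n = 3) against 47.2 ± 1.83 (n = 2) in the Wnt6 deletion and 48.5 ± 5.52 (n = 2) in the Hmx1 deletion. The levels of the groups overlapped for all 8 windows in each comparison, where they did not overlap for 26.1% of all gene windows in the Hoxa deletion, 10.3% in the Wnt6 deletion and 21.1% in the Hmx1 deletion.

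**Figure D3:**
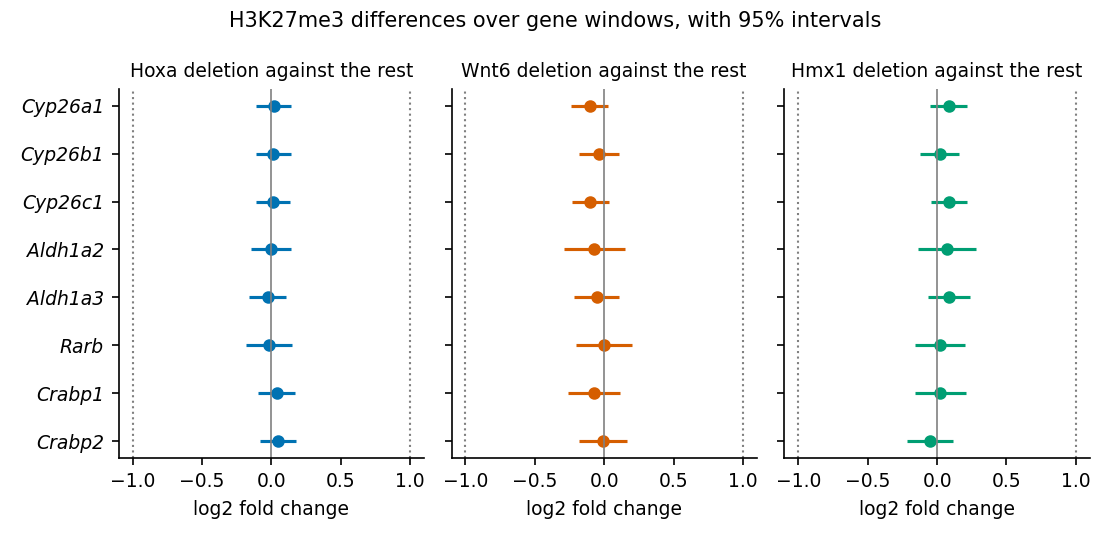
Log2 fold change of each gene window in each deletion against the other deletions together, with its 95% interval. Every interval crosses 0 and lies within 0.29 of it, far from the dotted lines at the fold change the study used for its calls.

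The single peaks gave the same picture at finer scale. With a call set at an adjusted p under 0.05 by edgeR and a log2 fold change beyond 1 either way, no peak of the 52 was called in any comparison, where 1.55% of all peaks were called in the Hoxa deletion, 0.0497% in the Wnt6 deletion and 0.0282% in the Hmx1 deletion. None passed the adjusted p alone, which 8.52%, 0.0564% and 0.0309% of all peaks did. DESeq2 also called none. At an unadjusted p under 0.05 there were 2 peaks in the Hoxa deletion, 0 in the Wnt6 deletion and 1 in the Hmx1 deletion, or 3.85%, 0% and 1.92% of the 52 against 20.8%, 5.2% and 8.96% of all peaks. The median log2 fold change was -0.014, -0.042 and 0.037, against -0.0054, -0.0025 and -0.0060 over all peaks. Among all peaks these medians differed with level, from -0.096, 0.097 and -0.036 under 2 CPM to -0.024, -0.045 and 0.081 at 100 CPM or more. The median absolute value of the 52 was 0.090, 0.10 and 0.098, against 0.21, 0.17 and 0.20 over all peaks. The 25 peaks of at least 10 CPM stayed within 0.27 of 0 in every comparison. Their median absolute value was 0.056, 0.069 and 0.075, against 0.12, 0.10 and 0.13 for all 17163 peaks at or above that level. The match in level is partial. Of the 25, 9 had 50 to 100 CPM and 6 had at least 100, against 2646 and 2245 of the 17163. The part of level in this difference was not tested.

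The peaks farthest from 0 were weak ones. In the Hoxa deletion the Rarb peak chr14:16434630-16435200 had 2.82, 1.57 and 2.45 CPM, against 2.88 and 3.97 in the Wnt6 deletion and 2.71 and 3.78 in the Hmx1 deletion. The ranges overlapped, and its log2 fold change of -0.70 ± 0.25 (SE) had an adjusted p of 0.0744 in edgeR. Without replicate 1 of the Hmx1 deletion the adjusted p of this peak was 0.0412, at a log2 fold change of -0.76. The Rarb peak chr14:16741431-16741692 had 3.21 and 2.87 CPM in the Hmx1 deletion, above the 1.41 to 2.26 of the other 5 libraries, with a log2 fold change of 0.79 ± 0.30 and an adjusted p of 0.466. A further peak at an unadjusted p under 0.05 lay outside the Crabp2 gene body, on the side of higher coordinate, at chr3:87958055-87958984, with 18.5, 18.8 and 18.6 CPM in the Hoxa deletion against 14.6 to 17.0 in the others. Its groups did not overlap, and its log2 fold change was 0.27 ± 0.12 with an adjusted p of 0.192.

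A Cyp26b1 peak in the gene body, chr6:84573871-84575721, was among those whose groups did not overlap. It had 70.8, 66.0 and 68.7 CPM in the Hoxa deletion, 74.1 and 72.8 in the Wnt6 deletion and 77.4 and 77.0 in the Hmx1 deletion. The log2 fold changes were -0.14 ± 0.09 in the Hoxa deletion and 0.13 ± 0.09 in the Hmx1 deletion, with adjusted p of 0.391 and 0.709 in edgeR. Groups did not overlap at 2 of the 52 peaks in the Hoxa deletion, 1 in the Wnt6 deletion and 4 in the Hmx1 deletion, where 18.3%, 10.1% and 15% of all peaks did not.

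**Figure D4:**
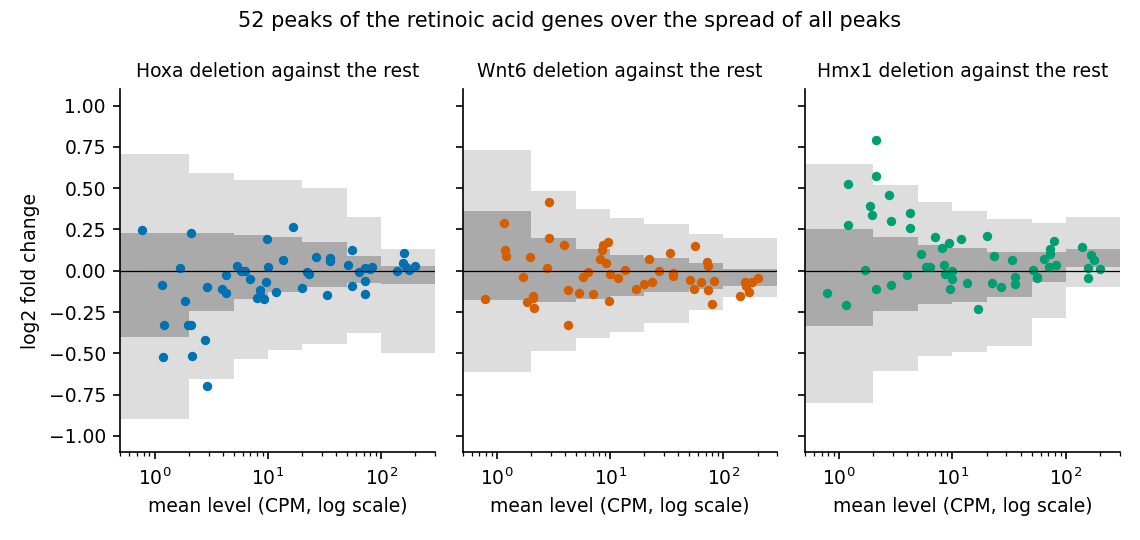
Log2 fold change of the 52 peaks, as points, against their mean level in CPM on a log scale, over the spread of all tested peaks of the same level (light band, 5th to 95th percentile, and dark band, 25th to 75th percentile). The points lie closer to 0 as the level rises, and the few beyond 0.5 have under 10 CPM.

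Some other genes of the pathway did differ in the Hoxa deletion, at a rate near that of all gene windows. A list of 30 genes was taken, 11 for the supply of vitamin A and its aldehyde, 1 carrier, 5 further receptors, 4 coregulators and 10 that respond to retinoic acid, with Dhrs3 in 2 of these groups. All had a peak in their windows, and 29 were counted in the Hoxa deletion, since the window of Hoxa4 reaches into the deleted stretch. There 5 genes were higher and 1 lower at an adjusted p under 0.05 in edgeR, or 20.7%, against 19.4% of all gene windows. The median log2 fold change of the list was -0.017. None of the 30 genes passed in the Wnt6 or the Hmx1 deletion by edgeR, with 3 and 5 at an unadjusted p under 0.05. By DESeq2 none passed in the Wnt6 deletion, and 1 higher and 3 lower passed in the Hmx1 deletion. The shares of all gene windows at an unadjusted p or by DESeq2 are not given here. These counts thus cannot be read as a result about the pathway.

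The receptors Rara and Rarg, which bind retinoic acid as Rarb does, were both higher in the Hoxa deletion. Rarg, on chromosome 15, had 6.32, 6.77 and 7.26 CPM per kb in the Hoxa deletion, 3.80 and 4.64 in the Wnt6 deletion and 2.58 and 3.57 in the Hmx1 deletion. Its groups did not overlap, and its log2 fold change was 0.84 ± 0.14 with an adjusted p of 1.212e-05. Rara had 17.4, 17.7 and 18.9 CPM per kb in the Hoxa deletion, 15.7 and 14.9 in the Wnt6 deletion and 11.8 and 13.1 in the Hmx1 deletion. It was higher by 0.37 ± 0.08 on the log2 scale, with an adjusted p of 3.352e-04 in edgeR, and by 0.24 against the Wnt6 deletion alone. Rarb, at a log2 fold change of -0.016 ± 0.081, did not pass, and the difference between the receptors was not tested.

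Stra8, a gene induced by retinoic acid in germ cells and, like Cyp26b1, on chromosome 6, had 16.7, 15.2 and 16.2 CPM per kb in the Hoxa deletion against 9.50 to 10.8 in the other 4 libraries. Its log2 fold change was 0.67 ± 0.09, with an adjusted p of 8.625e-08 in edgeR. Nrip1, a corepressor of ligand-bound nuclear receptors, was higher by 0.50 ± 0.10 on the log2 scale, with an adjusted p of 1.868e-04 in edgeR and of 0.0618 in DESeq2. Its levels were 21.1, 19.5 and 18.5 CPM per kb in the Hoxa deletion, 18.3 and 14.4 in the Wnt6 deletion and 12.2 and 11.1 in the Hmx1 deletion. The Hmx1 deletion was thus lowest, and the log2 fold change of Nrip1 was 0.28 against the Wnt6 deletion alone, with an adjusted p of 0.0173 in edgeR, and 0.77 against the Hmx1 deletion alone. Cdx1, a homeobox gene that responds to retinoic acid, was the remaining higher gene. Its log2 fold change of 0.18 ± 0.07 had an adjusted p of 0.04998 in edgeR, and it did not pass under 12 of 20 alternatives, among them those without any 1 library of the Hoxa or Wnt6 deletions and the comparison with the Hmx1 deletion alone, at 0.083.

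Of the stem cell markers, 2 of the 8 were higher and 1 lower in the Hoxa deletion, where 19.4% of all gene windows passed by edgeR. A list of 8 genes is too short to be set apart from that share. Klf4 and Tfcp2l1, transcription factors of the pluripotent state, had log2 fold changes of 0.60 ± 0.09 and 0.84 ± 0.18, with adjusted p of 1.521e-06 and 3.306e-04 in edgeR. Klf2, a related factor on chromosome 8, had -0.81 ± 0.14 with an adjusted p of 2.038e-05. The remaining markers did not pass. The summed level of the 8 markers was 404 to 419 CPM in the Hoxa deletion and 349 to 390 in the other 4 libraries. Groups did not overlap for 26.1% of all gene windows in that comparison. This sum adds windows of unequal size. Esrrb, with a mean of 248 CPM, makes up the largest part of it and did not pass, at a log2 fold change of 0.12 and an adjusted p of 0.228 in edgeR. The 7 fibroblast markers had log2 fold changes from -0.071 to 0.083 in the Hoxa deletion. The part of these differences in the values of the pathway genes was not tested.

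Bco1, which cleaves beta-carotene into retinaldehyde, was lower by edgeR at a log2 fold change of -0.68 ± 0.07 and an adjusted p of 3.011e-10. Its levels were 16.5, 16.7 and 15.1 CPM per kb in the Hoxa deletion, 24.8 and 23.1 in the Wnt6 deletion and 26.0 and 29.5 in the Hmx1 deletion. It lies on chromosome 8, where all 5579 peaks had a median log2 fold change of -0.59 in the Hoxa deletion, and the part of that shift in the Bco1 value was not tested. On the chromosomes of the 8 genes the medians in the Hoxa deletion lay between -0.0088 and 0.078.

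**Figure D5:**
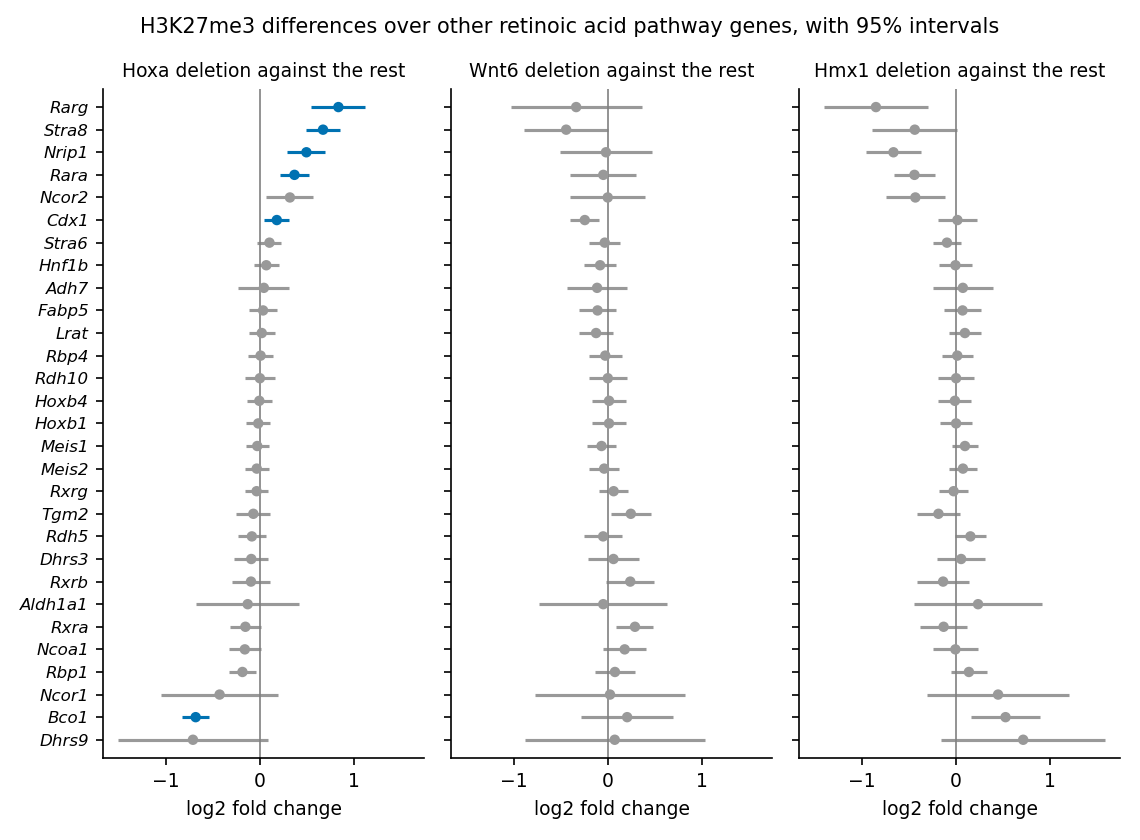
Log2 fold change and 95% interval of the other retinoic acid pathway genes in each deletion against the other deletions together, without Hoxa4, in order of the value in the Hoxa deletion. Colour marks an adjusted p under 0.05, which 6 genes reached in the Hoxa deletion and 0 in the others.

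Genes elsewhere in the genome with a level like that of each retinoic acid gene in all 7 libraries were found by the root mean square difference of log2 CPM over the gene window, among protein-coding genes more than 1 Mb away. For Cyp26a1 and for Cyp26c1 the nearest of 16983 genes was Cdx2, a homeobox gene of the posterior embryo, at 0.025 for both. For Crabp2 it was Tmem190 at 0.024, for Rarb C3 at 0.043, for Aldh1a3 Tril at 0.044, for Cyp26b1 Gm1673 at 0.044, for Aldh1a2 Lyst at 0.045 and for Crabp1 Acp1 at 0.050. The measure follows total level as well as its course across libraries, and the 7 libraries share their deletions and depths.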

How the data were processed

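H3K27me3 Cut&Tag counts of 7 libraries were used, with groups and columns taken from the titles in the labels. The authors deposited raw read counts per peak over a shared list of 74458 peaks, without normalization. The submitters' processing notes name mm10, Trimmomatic, Bowtie2, SAMtools, Picard, MACS2 and deepTools. How the peak list was made, whether duplicates were removed and whether reads or fragments were counted are not given in the sources used here. If the list was called on part of the libraries, peaks strong in those are favoured, and PCR duplicates would make counts less independent. Peak positions are as deposited, where it is not stated if the start counts from 0 or 1. The 7 IgG libraries were not analysed here, so that no background was subtracted.

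Gene bodies came from a RefSeq table of GRCm38.p6, which has no strand or exons, and starts and strands from its promoter table. The members, gene lists and tests were chosen with earlier results of these data known. In R 4.3.3, filterByExpr by genotype in edgeR 4.0.16 removed 17 peaks, TMM factors scaled the libraries, and glmQLFit and glmQLFTest compared each deletion with the other 2 pooled. Gene windows summed the counts of peaks within 10 kb of each of 17003 protein-coding genes. P-values were adjusted by Benjamini-Hochberg over all 74441 peaks or all windows, standard errors were derived from the F statistic, and intervals are 95%. A call used an absolute log2 fold change over 1 and an adjusted p under 0.05. Alternatives covered DESeq2 1.42.0, other normalizations and filters, the model, the comparison group, replicate blocks, each library left out, chromosome 8 left out and other windows. Those for the other pathway genes were chosen after seeing the data. The scripts were tested on simulated data with 200 changed peaks. Named were all 8 genes with their strongest and start peaks, every called peak, the 2 peaks of smallest p per gene with an adjusted p under 0.05, 1 gene of similar level for each, and at most 6 pathway genes per comparison by adjusted p. Some genes of the list are not reported here. Further peaks named for an unadjusted p under 0.05 or for groups that did not overlap were chosen after their values were seen. Plots used Python 3.11.15 with matplotlib 3.10.9.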

Additional observations from a re-analysis of the deposited data

How the results depend on the processing

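No peak of the 8 genes was called and no window of theirs passed an adjusted p of 0.05 under any alternative run, DESeq2 included. Over 480 alternative values of the 24 window comparisons the largest absolute log2 fold change was 0.24, and 63 values changed sign with no test passed on either side. In the Hoxa deletion 1 peak passed the adjusted p alone without replicate 1 of the Hmx1 deletion (the Rarb peak given above, 0 to 1 peaks over the libraries left out in turn), and within 50 kb 1 peak passed, over Nes at 0.30 with an adjusted p of 0.0338 in edgeR, which was named after its value was seen. The median log2 fold change of the peaks in the Hoxa deletion was 0.026 against the Wnt6 deletion alone, -0.053 against the Hmx1 deletion alone and -0.045 with chromosome 8 left out, and ran from -0.064 to 0.024 with each library left out. In the Wnt6 deletion it ran from -0.062 to 0.0077, lying above 0 without replicate 2 of that deletion, and in the Hmx1 deletion from -0.028 to 0.098. The cause of these moves was not tested, and medians this small have no direction. Of the other pathway genes in the Hoxa deletion, 3 were lower with abundance-dependent offsets, 2 with a term for each genotype or against either other deletion alone, and 1 to 2 with each library left out, with 2 without replicate 1 of the Hmx1 deletion, while 4 to 5 were higher with each library left out. With a term for each genotype, 2 were higher and 2 lower in the Wnt6 deletion and 2 higher and 5 lower in the Hmx1 deletion. Against the Hoxa deletion alone these were 3 higher and 5 lower, and 3 higher and 5 lower. In these 4 counts 1 of the higher genes was Hoxa4, whose window is lost in the Hoxa deletion, and without it 1, 1, 2 and 2 were higher. Between the Wnt6 and Hmx1 deletions 1 gene was higher in Wnt6, and the same count of 1 was lower in Hmx1. The shares of all gene windows under these alternatives are not given here. In the Hmx1 deletion DESeq2 gave 1 higher and 3 lower, library totals alone 1 lower, chromosome 8 left out 1 lower, and the libraries left out in turn 0 to 2 lower, with 2 lower without replicate 2 of the Wnt6 deletion. The numbers shared by libraries were not taken to pair them. Deviations of the libraries from the group means correlated between -0.052 and 0.089 for those of the same replicate number. By library number, a second number of each library, they correlated between -0.128 and 0.061. In groups of 2 libraries the deviations mirror each other, so that few of these values are independent and they cannot decide on pairing. With the replicate block 0 peaks were called in each deletion, with medians of -0.033, -0.034 and 0.065. The block changed no other call but that of Cdx1, at an adjusted p of 0.0843 in edgeR. Where leaving out a library left 1 in an arm, it was assumed to vary like the others. Depth limits the peaks under 10 CPM most, 27 of the 52, since the shallowest library holds 6016500 counts.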
